A study of Mus musculus with 12 samples.

Results

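The enzymes that write and erase DNA methylation were followed through 12 RNA-seq libraries of mouse embryonic stem cells (ESCs). The set is defined by gene function, with no threshold on measured values, and was chosen with earlier results of these data known. It holds the methyltransferase genes Dnmt1, Dnmt3a, Dnmt3b and Dnmt3l, the Dnmt1 cofactor gene Uhrf1, and the TET dioxygenase genes Tet1, Tet2 and Tet3, which makes 8 of the 25759 genes listed in each table. All 8 were found in the tables and all 8 passed the filter on low counts in every comparison.

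DNA methylation in mammals is copied onto the new strand at replication by Dnmt1, which Uhrf1 brings to hemimethylated sites. It is laid down on unmethylated DNA by Dnmt3a and Dnmt3b, with the catalytically inactive Dnmt3l as their cofactor. TET enzymes oxidise the methyl group and so start its removal. Mouse ESCs kept with inhibitors of Mek and Gsk3 are known for low methylation, and cells that move towards the primed epiblast are known for high levels of the de novo enzymes.

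All libraries came from HATX3 ESCs, in which the nls-rtTA transactivator and doxycycline turn on the endogenous Xist gene. Wild-type (WT) cells were the parental line, which arose from haploid embryos, became diploid in culture and is described by the study as polyclonal. The mutant cells, with genotype Cdk8-/- in the labels and called ΔCdk8 by the study, were 3 single clones (8, 11 and 15) in which CRISPR/Cas9 removed a short stretch with the Cdk8 start codon. Each of WT samples 1, 2 and 3 and of the clones was sequenced uninduced and after 48 h of Xist induction with doxycycline, which gives 4 groups of 3. Cells with doxycycline and without an inducible Xist were not analysed here, so effects of doxycycline and of Xist cannot be told apart. The culture recipe of the study adds Gsk3β and Mek1/2 inhibitors to serum and LIF for maintenance, and the labels do not say whether the cells used for RNA received them. Whether the WT samples were separate cultures is not stated, so p-values may measure technical spread in that genotype.

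Libraries held between 22170087 and 60798578 reads on genes, of which 4.77% to 7.59% lay on introns. Cdk8 was measured at 64.2 to 74.2 TPM (exon reads per exon length, scaled to sum to 1000000 in each library) in uninduced WT cells and at 34.4 to 85.3 TPM in uninduced ΔCdk8 clones. These reads come from the whole gene and not from the short deleted stretch, so they do not check the genotype, and clone 15 lay above every uninduced WT library. As a check of cell identity, the summed level of 12 pluripotency genes was 2556 to 4660 TPM over all libraries. Lists of primitive endoderm and fibroblast markers summed to 5.67 to 11.8 TPM and 5.70 to 32.4 TPM, while trophoblast markers summed to 26.6 to 205 TPM in WT libraries and 81.3 to 551 TPM in the clones. The keratin genes Krt8 and Krt18 held the larger part of the trophoblast sum. In uninduced clone 15, where it was highest, they stood at 177 and 320 TPM. Tfap2c and Eomes stood there at 39.6 and 8.70 TPM, and Cdx2, Elf5 and Gata3 at 0.66, 1.76 and 2.82 TPM. Clones resembled each other less than WT samples did, with a lowest correlation between libraries of a group of 0.908 for the clones and 0.947 for WT (log2 scale).

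The genes lie on 7 chromosomes. In GRCm38, Dnmt3b occupies chromosome 2 from 153649450 to 153687730 on the forward strand, and Dnmt3a chromosome 12 from 3806007 to 3914443 on the forward strand. Dnmt3l lies on chromosome 10 from 78041947 to 78063622 on the forward strand, on the same chromosome as Tet1, which runs from 62804570 to 62908996 on the reverse strand. Dnmt1 lies on the reverse strand of chromosome 9 from 20907209 to 20959888, and Uhrf1 on the forward strand of chromosome 17 from 56303321 to 56323486. Tet2 and Tet3 lie on the reverse strands of chromosome 3 (133463679 to 133545139) and chromosome 6 (83362373 to 83459084). The upstream sequences of the 3 de novo genes are shown, since Dnmt3a and Dnmt3b were the members with no overlap between the genotypes, although short of the edgeR threshold, and Dnmt3l, which encodes their cofactor, overlapped. Each run holds the 250 bases before an annotated RefSeq start (GRCm38.p6, written 5′ to 3′ on the gene's strand), with every CG dinucleotide in capitals.
Dnmt3b, chr2:153649199-153649448, forward strand: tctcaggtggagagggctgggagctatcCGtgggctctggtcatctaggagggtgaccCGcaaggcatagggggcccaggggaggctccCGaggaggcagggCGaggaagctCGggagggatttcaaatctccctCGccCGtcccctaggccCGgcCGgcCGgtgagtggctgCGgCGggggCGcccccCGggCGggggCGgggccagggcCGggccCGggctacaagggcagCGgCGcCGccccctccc
Dnmt3a, most upstream start, chr12:3806730-3806979, forward strand: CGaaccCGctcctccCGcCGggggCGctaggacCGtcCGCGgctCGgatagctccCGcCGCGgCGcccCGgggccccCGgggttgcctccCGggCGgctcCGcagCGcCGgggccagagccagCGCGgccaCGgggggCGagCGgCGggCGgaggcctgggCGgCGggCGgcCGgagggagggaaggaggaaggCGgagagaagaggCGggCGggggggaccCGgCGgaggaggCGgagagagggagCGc
Dnmt3l, internal start, chr10:78049592-78049841, forward strand: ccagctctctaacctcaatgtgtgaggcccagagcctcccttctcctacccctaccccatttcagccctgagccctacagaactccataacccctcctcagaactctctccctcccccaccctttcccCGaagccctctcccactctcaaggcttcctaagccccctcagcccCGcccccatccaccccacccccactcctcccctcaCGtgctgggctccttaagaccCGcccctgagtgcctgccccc

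The windows shown differ in CG content. The Dnmt3b window held 21 CG dinucleotides and the Dnmt3a window 38, against a median of 6 over the 32851 annotated mouse windows of the same length. The Dnmt3l window held 4. The GC box letters GGGCGG, searched on both strands, occurred 3 times for Dnmt3b, 5 times for Dnmt3a and 2 times for Dnmt3l, and 32.7% of all windows hold them at least once. The E-box letters CACGTG, whose reverse complement is the same, occurred once in the Dnmt3l window and in neither of the other 2, against 6.02% of all windows. The octamer letters ATGCAAAT were in none of the 3 windows on either strand, against 1.60% of all windows. These counts depend on the start shown. A Dnmt3a start further downstream (upstream window on chromosome 12 from 3891494 to 3891743) has 15 CG dinucleotides, 1 GGGCGG and 1 CACGTG, and the other 2 Dnmt3l windows have 5 and 3 CG dinucleotides and neither motif. Counts per gene do not show which start was used.

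In uninduced WT cells Dnmt3b and Dnmt3l led the order of levels, and Dnmt3a came after the maintenance genes. Mean TPM values (± SD, n = 3) were 787 ± 226 for Dnmt3b, 565 ± 127 for Dnmt3l, 370.4 ± 58.9 for Uhrf1, 147 ± 16.5 for Dnmt1, 114 ± 18.2 for Dnmt3a, 80.3 ± 19.4 for Tet1, 16.9 ± 10.8 for Tet2 and 5.69 ± 1.61 for Tet3. The ranges of Dnmt3b and Dnmt3l overlapped, as did those of Dnmt1 and Dnmt3a and of Dnmt3a and Tet1, while the other neighbours in the order were separate. In uninduced ΔCdk8 clones Dnmt3l led at 523 ± 56.7 TPM, Dnmt3b came after Uhrf1 with an overlapping range, and Dnmt3a came after Tet1, again with overlapping ranges. The order of the first pair depends on the length used: per kilobase of the longest coding transcript, Dnmt3l had 326 ± 73.9 and Dnmt3b 310 ± 88.1 exon reads per 1000000 gene reads in uninduced WT cells. An exon of Dnmt3l overlaps Aire on the opposite strand, and the strand setting of the counting is not given, so reads of the pair may not be told apart. Aire was listed at 9.98 to 54.5 TPM. The antisense genes Dnmt3aos, Dnmt3bos and Gm42567 overlap exons of Dnmt3a, Dnmt3b and Tet2 in the same way and are not listed in the tables.

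**Figure D1:**
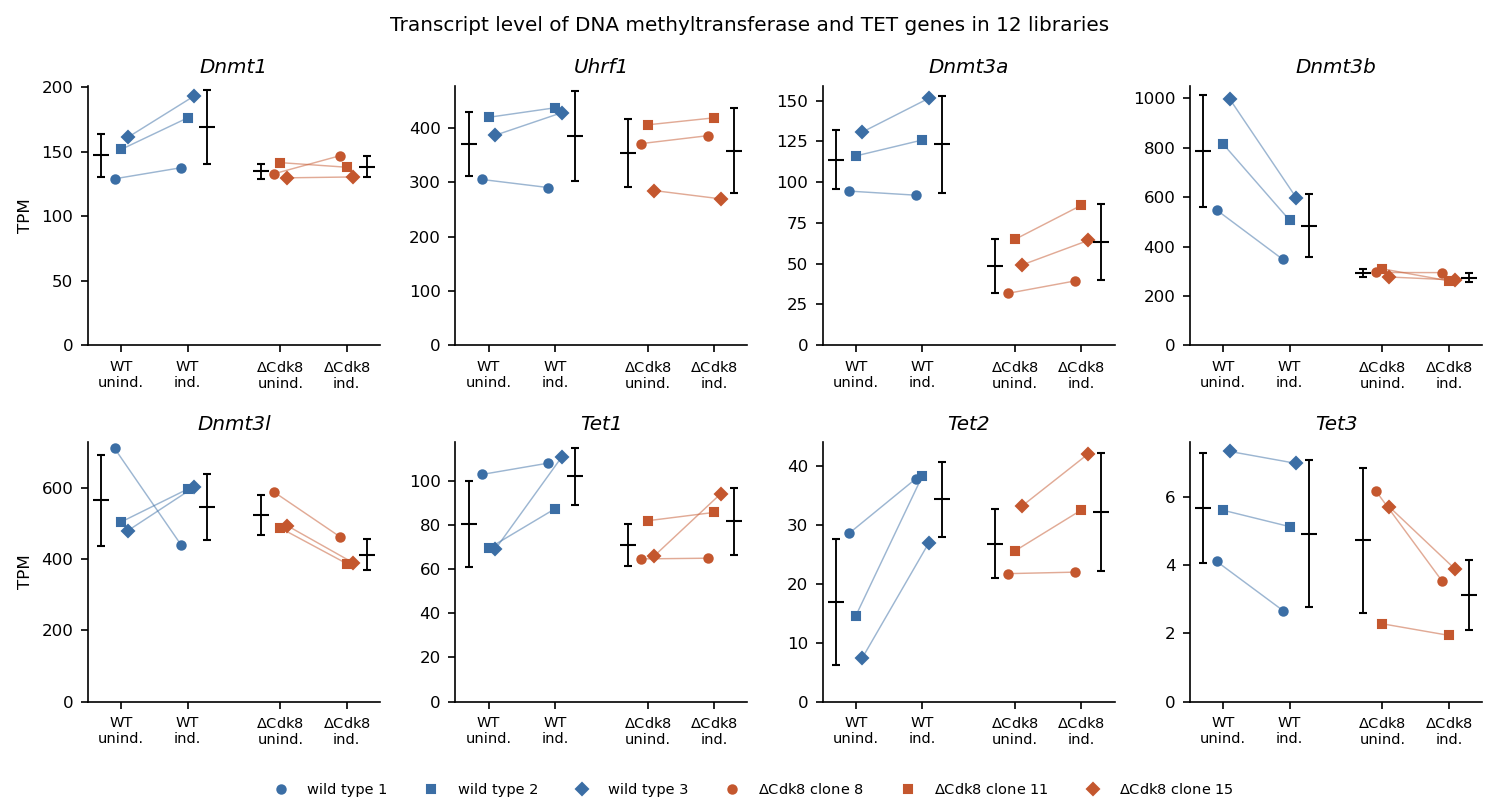
TPM of the 8 genes in each library (y axis, from 0) for uninduced and induced WT (blue) and ΔCdk8 (orange) cells. Symbols are libraries, lines join the same replicate or clone number, and black bars are the mean ± SD (n = 3). Every ΔCdk8 symbol for Dnmt3a and Dnmt3b lies below every WT symbol of the same condition, and Dnmt3b falls along each of the 3 WT lines.

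The first comparison sets the clones against WT cells before Xist is turned on. The mutant cells are single clones and the WT cells the polyclonal parental line. Loss of Cdk8 and derivation from a single clone therefore cannot be told apart here. Dnmt3b, the main de novo enzyme of the early embryo, stood at 548, 815 and 997 TPM in uninduced WT samples 1, 2 and 3. It stood at 295, 310 and 277 TPM in clones 8, 11 and 15. The highest clone was thus well under the lowest WT library, and the clones were far closer to each other than the WT samples were.

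The mean of the clones was 37.3% of the WT mean for Dnmt3b. The log2 fold change was -1.54 (SE 0.23), which ranked 31 of 14646 genes by p, with an adjusted p of 0.110 (edgeR quasi-likelihood, Benjamini-Hochberg over all genes). The value therefore missed the study's threshold, which asks for more than a 2-fold difference and for an adjusted p under 0.01. DESeq2's Wald test gave -1.56 with an adjusted p of 1.77e-06, past that threshold.

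Dnmt3a, the other de novo enzyme, stood at 94.5, 116 and 131 TPM in the uninduced WT samples. The clones had 31.9, 65.0 and 49.2 TPM. The groups again did not overlap, and clone 8 was the lowest for this gene.

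For Dnmt3a the mean of the clones was 42.8% of the WT mean. The log2 fold change was -1.35 (SE 0.30, adjusted p = 0.130 with edgeR), and DESeq2 gave -1.37 with an adjusted p of 0.00198. Without clone 11, edgeR gave -1.74 for Dnmt3a and -1.67 for Dnmt3b, with adjusted p-values of 0.0248 and 0.0276. Without WT replicate 1, the adjusted p was 0.0665 for Dnmt3a and 0.0324 for Dnmt3b, and over all libraries left out in turn the highest was 0.501 for both genes.

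Their cofactor Dnmt3l did not share this difference in uninduced cells. It stood at 711, 504 and 479 TPM in the WT samples and at 588, 487 and 494 TPM in the clones, so the groups overlapped. The log2 fold change was -0.24 (SE 0.19, edgeR adjusted p = 0.459).

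The maintenance pair overlapped between the genotypes as well. Dnmt1 stood at 129, 152 and 161 TPM in uninduced WT samples and at 133, 142 and 130 TPM in the clones. Uhrf1 stood at 305, 420 and 386 TPM in WT samples and at 371, 406 and 285 TPM in the clones. Clone 15 was the lowest of the clones for both genes. The log2 fold changes were -0.26 (SE 0.16) for Dnmt1 and -0.19 (SE 0.22) for Uhrf1, with edgeR adjusted p-values of 0.349 and 0.624.

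Among the TET genes, Tet1, the most abundant of the 3 in these cells, stood at 103, 69.3 and 68.9 TPM in uninduced WT samples and at 64.5, 81.8 and 65.9 TPM in the clones. Tet2 stood at 28.6, 14.6 and 7.47 TPM in WT samples and at 21.8, 25.6 and 33.2 TPM in the clones. Tet3 was low throughout, at 4.12, 5.61 and 7.34 TPM in WT samples and at 6.18, 2.28 and 5.72 TPM in the clones. All 3 overlapped between the genotypes. The spread of Tet2 among the WT samples was the largest of the 8 genes relative to its mean, with an SD of 63.7% of the mean. Log2 fold changes were -0.32 (SE 0.23) for Tet1, 0.54 (SE 0.44) for Tet2 and -0.45 (SE 0.35) for Tet3, with edgeR adjusted p-values between 0.433 and 0.480. Tet2 depended on single libraries: without WT replicate 1 its log2 fold change was 1.14, and without WT replicate 3 it was 0.17. For Tet3 it was -0.17 without clone 11, -0.25 without WT replicate 3 and -0.68 without clone 8. Tet1 ranged from -0.10 without WT replicate 1 to -0.55 without clone 11. Of the other genes, Dnmt3l was at -0.05 without WT replicate 1 and -0.16 without clone 15, and Uhrf1 ranged from -0.01 without clone 15 to -0.39 without clone 11, with -0.09 without WT replicate 2 and -0.31 without WT replicate 1.

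In counts, edgeR found 0 of the 8 members past the threshold in uninduced cells, as it did for 0% of all genes tested. At an unadjusted p under 0.05 there were 2, both lower in the clones, against 20.4% of all genes. DESeq2 found 2 past the threshold, against 2.64% of all genes. Every clone lay below every WT library for 2 members, against 6.79% of all genes, and those 2 were Dnmt3a and Dnmt3b under each rule. For a single gene in 3 against 3 libraries the smallest 2-sided p of an exact permutation test is 0.1.

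The same genotype comparison was made after 48 h of induction. Dnmt3a stood at 92.0, 126 and 151 TPM in induced WT samples and at 39.4, 85.8 and 64.2 TPM in the clones. Dnmt3b stood at 348, 507 and 598 TPM in WT samples and at 294, 261 and 264 TPM in the clones. Both genes were again separate between the genotypes, with the gap for Dnmt3b narrower than in uninduced cells.

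The mean of the clones was 51.3% of the WT mean for Dnmt3a and 56.4% for Dnmt3b. In edgeR the log2 fold changes were -1.12 (SE 0.35, adjusted p = 0.109) and -0.96 (SE 0.24, adjusted p = 0.0774), and DESeq2 gave -1.14 and -0.98 with adjusted p-values of 0.0215 and 0.00570. Without clone 11 the Dnmt3a value was -1.52 with an adjusted p of 0.0249, and without WT replicate 1 the Dnmt3b value was -1.17 with an adjusted p of 0.0369.

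Dnmt3l stood at 440, 596 and 602 TPM in induced WT samples and at 462, 387 and 389 TPM in induced clones, and Tet1 at 108, 87.2 and 111 TPM against 64.8, 85.6 and 94.0 TPM. Both overlapped in range between the genotypes. Their log2 fold changes were -0.54 (SE 0.20, edgeR adjusted p = 0.149) and -0.49 (SE 0.19, edgeR adjusted p = 0.165). The remaining genes ranged from -0.20 for Tet2 to -0.85 for Tet3. Leaving out each library gave -1.16 to -0.49 for Tet3 and -0.44 to -0.01 for Uhrf1.

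After induction edgeR again found 0 members past the threshold, against 0% of all genes, and DESeq2 found 0 against 5.80%. At an unadjusted p under 0.05 there were 4 in edgeR (Dnmt3a, Dnmt3b, Dnmt3l and Tet1), all lower in the clones, against 25.9% of all genes. Every clone lay below every WT library for 2, Dnmt3a and Dnmt3b, against 10.1% of all genes. This comparison and the uninduced one use different libraries of the same clones.

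Reads on introns, which come largely from unspliced RNA, were tested apart from reads on the whole gene. Between 1.21% and 13.5% of the reads of each member lay on introns. In uninduced cells the log2 fold change over intron reads was -1.09 (SE 0.32) for Dnmt3a and -1.07 (SE 0.24) for Dnmt3b, with edgeR adjusted p-values of 0.176 and 0.127. Per 1000000 intron reads of the library, Dnmt3b had 627 to 981 intron reads in uninduced WT samples and 378 to 458 in the clones. The groups were thus separate for Dnmt3b on introns too. In induced cells the intron value was -1.37 (SE 0.39) for Dnmt3a and -0.38 (SE 0.25, edgeR adjusted p = 0.360) for Dnmt3b, whose ranges overlapped there, at 411 to 571 in WT samples and 302 to 531 in the clones. For Dnmt3l the intron value in uninduced cells was 0.40 (SE 0.24), of the opposite sign to its value over all reads, and neither passed the test. The intron share of the library was highest in clones 8 and 15 after induction, at 7.59% and 7.25%, and its part in these values was not tested.

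**Figure D2:**
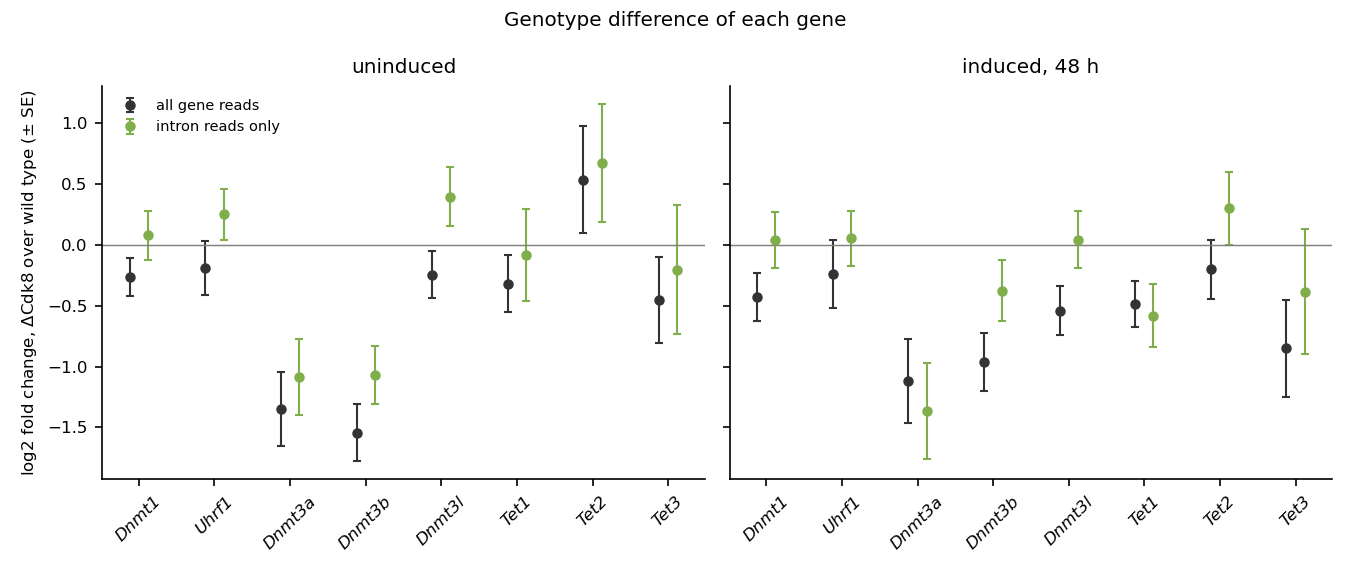
Log2 fold change of ΔCdk8 over WT for each gene (y axis, ± SE, n = 3 per group) in uninduced cells (left) and after 48 h of induction (right), from edgeR over all gene reads (black) and over intron reads only (green). Dnmt3a and Dnmt3b lie lowest in both panels over all reads, at -1.35 and -1.54 when uninduced, and the green Dnmt3b point rises to -0.38 when induced.

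Induction of Xist was then followed within each genotype. Libraries of the same number deviated together from their group means, so each induced library was also compared with the uninduced library of its own number in a fit with the replicate number as a block, called the paired fit here. Dnmt3b gave the most even response of the members in WT cells. Its induced level was 0.634, 0.622 and 0.600 of the uninduced level in samples 1, 2 and 3, although the samples started from levels that differed from 548 to 997 TPM. In the clones these ratios were 0.998, 0.843 and 0.956 for clones 8, 11 and 15.

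For Dnmt3b in WT cells the log2 fold change was -0.66 in both fits. Its SE was 0.28 without the block (edgeR adjusted p = 0.241) and 0.06 in the paired fit (edgeR adjusted p = 0.00224). Dnmt3b thus fell on induction in the paired fit, by less than the 2-fold that the threshold asks for. Leaving out WT replicates 1, 2 or 3 from the paired fit gave -0.69, -0.69 and -0.68, with adjusted p-values of 5.2e-06, 0.0421 and 0.00703. Over intron reads the paired value was -0.70 (SE 0.14, edgeR adjusted p = 0.00227).

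In the clones the paired log2 fold change of Dnmt3b was -0.07 (SE 0.08, edgeR adjusted p = 0.631). The difference between the genotypes, tested as an interaction term over the 12 libraries, was 0.61 with an SE of 0.36 and an edgeR adjusted p of 1.00 without the block. With the block it was 0.61 with an SE of 0.10 and an adjusted p of 0.00780. Leaving out 1 library pair gave adjusted p-values from 0.00161 to 0.0583, the highest without clone 8, where the difference was 0.51. Over intron reads the blocked difference was 0.67 (SE 0.18, edgeR adjusted p = 0.0539). The induced and the uninduced WT levels also enter the genotype comparisons above, so these values are not separate evidence for them.

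Tet2, which had a lower TPM than Tet1 in every library, rose on induction in each WT sample. It reached 37.9, 38.3 and 27.0 TPM, which is 1.32, 2.63 and 3.61 times the uninduced level. In the clones it reached 22.0, 32.6 and 42.1 TPM, which is 1.01, 1.27 and 1.27 times. Among WT samples the ratio was larger where the uninduced level was lower, while clone 8, the lowest clone at 21.8 TPM, had the smallest ratio of the clones. The paired log2 fold changes were 1.23 (SE 0.28, edgeR adjusted p = 0.0304) in WT cells and 0.28 (SE 0.08, edgeR adjusted p = 0.0229) in the clones, and without the block the adjusted p-values were 0.252 and 1.00. The WT call was lost without WT replicate 2 (1.14, adjusted p = 0.161), and that of the clones without clone 11 (0.24, adjusted p = 0.129) or clone 15 (0.20, adjusted p = 0.0876). The blocked difference between the genotypes was -0.93 (SE 0.31, edgeR adjusted p = 0.112). It was -1.36 (edgeR adjusted p = 5.86e-05) without WT replicate 1 and -0.58 (edgeR adjusted p = 0.266) without WT replicate 3.

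Dnmt3l went in different directions in the WT samples. Its induced level was 0.620 of the uninduced level in sample 1 and 1.18 and 1.26 times that level in samples 2 and 3. In the clones the ratios were 0.785, 0.795 and 0.788, the set with the smallest SD (0.00490) among the 8 genes in either genotype. Dnmt3l fell in the clones in the paired fit, with a log2 fold change of -0.31 (SE 0.07, edgeR adjusted p = 0.00640), and its WT value was -0.00 (SE 0.22, adjusted p = 0.993). Without WT replicate 1 the WT value was 0.31 with an adjusted p of 0.00154, and the blocked difference between the genotypes was -0.63 with an adjusted p of 0.000483, against -0.28 with an adjusted p of 0.525 with all libraries. These Dnmt3l values thus rest on whether WT replicate 1 is included.

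Dnmt3a rose in each clone, with ratios of 1.24, 1.32 and 1.31. Its paired log2 fold change in the clones was 0.38 (SE 0.07, edgeR adjusted p = 0.00106), against 0.13 (SE 0.09, adjusted p = 0.332) in WT cells, and the blocked difference between the genotypes was 0.27 (SE 0.10, adjusted p = 0.159). Without WT replicate 1 the WT value was 0.19 and the difference 0.18. Without WT replicate 3 they were 0.03 and 0.36. Over intron reads the Dnmt3a value in the clones was 0.08 (SE 0.15, edgeR adjusted p = 0.858). Even after this rise the highest clone, at 85.8 TPM, stayed under the lowest induced WT library, at 92.0 TPM.

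Tet3 fell in the clones in the paired fit, with ratios of 0.571, 0.851 and 0.678 and a log2 fold change of -0.50 (SE 0.11, edgeR adjusted p = 0.00518). The call was lost without clone 8 (-0.38, adjusted p = 0.176). In WT cells the ratios were 0.649, 0.915 and 0.952, with a paired value of -0.23 (SE 0.15, edgeR adjusted p = 0.320). That value was -0.06 without WT replicate 1 and -0.37 without WT replicate 3. Tet1 ratios were 1.05, 1.26 and 1.61 in WT samples and 1.00, 1.05 and 1.43 in the clones, with paired values of 0.39 (SE 0.14, edgeR adjusted p = 0.0977) and 0.21 (SE 0.09, edgeR adjusted p = 0.123). The WT value of Tet1 ran from 0.19 without WT replicate 3 to 0.54 without WT replicate 1. That of the clones ran from 0.05 without clone 15 to 0.29 without clone 8. DESeq2 with the block gave Tet1 an adjusted p of 0.0421 in WT cells (0.37). Dnmt1 and Uhrf1 had ratios between 0.946 and 1.20 over both genotypes, with paired adjusted p-values of at least 0.0957 in edgeR.

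**Figure D3:**
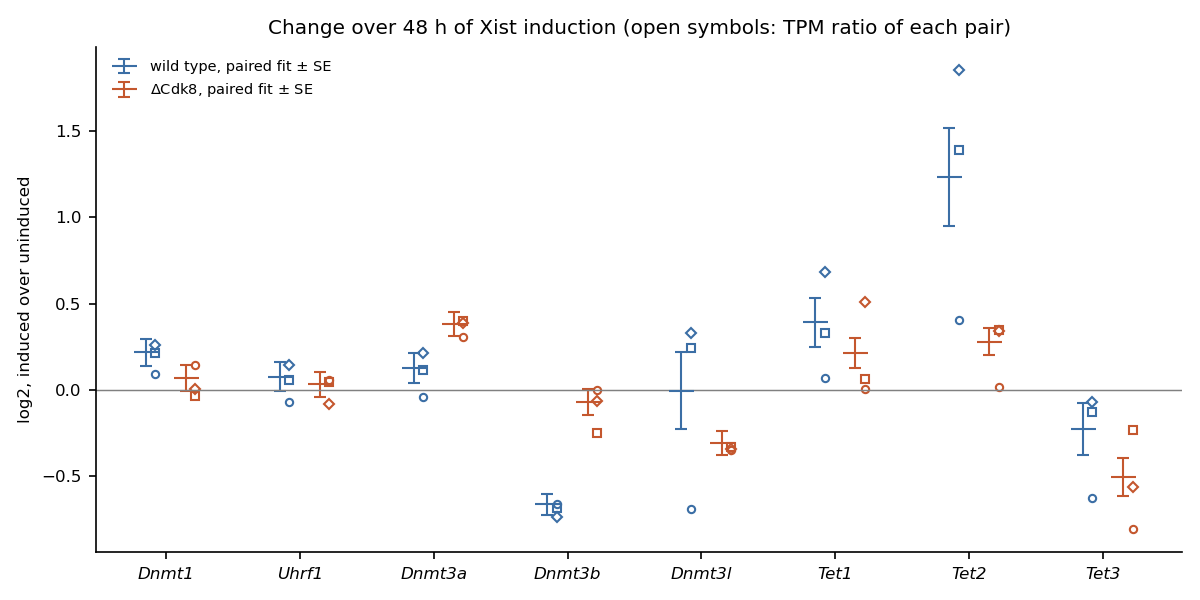
Log2 change on 48 h of induction for each gene (y axis) in WT (blue) and ΔCdk8 (orange) cells. Bars are the paired edgeR estimate ± SE and open symbols the TPM ratio of each of the 3 pairs (circle, square and diamond for samples 1, 2, 3 or clones 8, 11, 15), which lie close together for Dnmt3b in WT cells (ratios of 0.600 to 0.634) and far apart for Tet2 (1.32 to 3.61).

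Counted over members, 0 passed the threshold of a 2-fold difference together with an adjusted p under 0.01 in any induction comparison or interaction. Tet2 on WT induction exceeded 2-fold, at 1.04 without the block and 1.23 with it, and missed on the adjusted p. In WT cells this compares with 1.16% of all genes without the block and 3.95% with it, in the clones with 0% and 1.40%, and for the interaction with 0% and 0.998%. DESeq2 gave 0 members past the threshold as well in these comparisons without the block. At an unadjusted p under 0.05 without the block there were 0 members, against 21.2% of all genes in WT cells, 2.64% in the clones and 3.88% for the interaction. In the paired edgeR fit at an adjusted p under 0.05 there were 2 members in WT cells (Dnmt3b and Tet2) against 23.0% of all genes, 4 in the clones (Dnmt3a, Dnmt3l, Tet2 and Tet3) against 11.8%, and 1 for the interaction (Dnmt3b) against 6.01%. Without WT replicate 1, 6 members passed in WT cells (Dnmt1, Dnmt3a, Dnmt3b, Dnmt3l, Tet1 and Tet2) and 3 for the interaction (Dnmt3b, Dnmt3l and Tet2), where all genes past the same rule numbered 6209 and 2709.

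The clones differ from each other along whole chromosomes, which touches Tet2 and Tet3. On log2 ratios of uninduced clone over WT mean TPM, the median of autosomal genes was 0.14 in clone 8, -0.02 in clone 11 and 0.21 in clone 15. For chromosome 3, which holds Tet2, the medians were 0.64, -0.04 and 0.83, and Tet2 itself was at 0.36, 0.60 and 0.97. For chromosome 6, which holds Tet3, the medians were 0.15, -0.57 and 0.09, and Tet3 itself was at 0.12, -1.28 and 0.01. In clones 8 and 15 genes of chromosome 3 were thus higher as a whole, and in clone 11 genes of chromosome 6 were lower as a whole. DNA copy number was not analysed here, and the part of the chromosome in the Tet2 and Tet3 values was not tested.

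Dnmt3a and Dnmt3b were lower than the median of the genes around them in every clone. Dnmt3b was at -1.42, -1.35 and -1.51 in clones 8, 11 and 15, while the median of the 149 genes within 10 Mb was 0.03, 0.04 and 0.13. Dnmt3a was at -1.83, -0.81 and -1.21, while the median of the 34 genes within 10 Mb was -0.14, -0.07 and 0.20. The spread of the genes around them was not measured, and the part of the chromosome in these values was not tested.

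**Figure D4:**
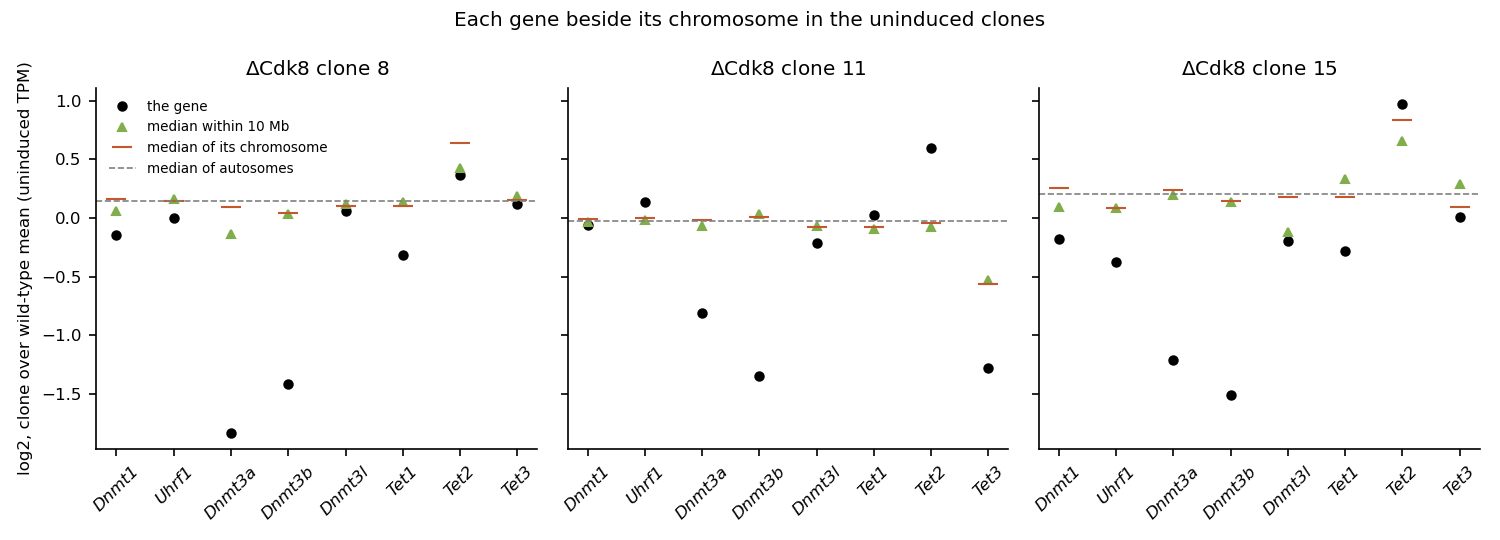
Log2 ratio of uninduced clone over WT mean TPM (y axis) for each gene (black), the median of genes within 10 Mb (green), the median of its chromosome (orange) and the median of all autosomes (dashed), in clones 8, 11 and 15. Chromosome medians stand apart for Tet2 in clones 8 and 15 (0.64 and 0.83) and for Tet3 in clone 11 (-0.57), while Dnmt3a and Dnmt3b lie below the medians of their chromosomes in all 3 clones.

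Markers of the primed state were measured in the same libraries, on a list chosen with earlier results of these data known. Counts over this list and the lists below are therefore a description and not an independent test. The list of formative or primed epiblast genes, 9 genes of which 8 were tested, summed to 105, 306 and 297 TPM in uninduced WT samples 1, 2 and 3 and to 51.6, 82.5 and 52.7 TPM in clones 8, 11 and 15. In induced cells the sums were 42.5, 138 and 140 TPM in WT samples and 27.5, 49.9 and 35.9 TPM in the clones. WT sample 1 was thus the lowest WT library for these genes in both conditions. It was also the lowest WT library in both conditions for Dnmt3a, Dnmt3b, Dnmt1, Uhrf1 and Tet3, which is 5 of the 8 members. The median log2 fold change of the list in uninduced cells was -2.27, against 0.03 over all genes, and 7 of its genes were lower and 1 higher in the clones at an unadjusted p under 0.05 in edgeR (20.4% of all genes in either direction), with 0 past the threshold. The higher gene was Eomes at 1.77, named after its value was seen. In DESeq2, 5 passed the threshold, against 2.64% of all genes, and were lower in the clones: Fgf5 (-3.16), Otx2 (-1.89), Pou3f1 (-2.23), Zic2 (-2.36) and Lef1 (-2.90), which encode a growth factor and transcription factors of the post-implantation epiblast. Of the whole list only T was under 1 TPM in all libraries. In bulk RNA, fewer cells of a type and less RNA per cell cannot be told apart, and the part of cell state in the Dnmt3a and Dnmt3b values was not tested.

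On induction, edgeR without the block found 0 primed genes past the threshold in either genotype. In the paired fit Otx2, Pou3f1, Lef1 and Sox3 passed it downwards in WT cells, against 3.95% of all genes, and Fgf5, Otx2 and Lef1 in the clones, against 1.40%. Sox3 is X-linked, and the study reports that Xist represses X-linked genes. The part of this repression in the fall of Sox3 was not tested. The paired values of Dnmt3b were -0.66 and -0.07 in WT cells and clones, and those of Dnmt3a were 0.13 and 0.38. Both inductions are counted over genes of the same list and do not share libraries. Of 12 pluripotency genes, 6 were higher and 2 lower in WT cells at a paired edgeR adjusted p under 0.05, against 23.0% of all genes. In the clones 4 were higher and 2 lower, against 11.8%. Esrrb had the largest WT value, 1.86 (SE 0.32, edgeR adjusted p = 0.0142), and a blocked difference between the genotypes of -1.45 (SE 0.34, edgeR adjusted p = 0.0385).

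Genes of the germline that promoter methylation keeps silent in somatic cells were followed as a list of 14, also chosen with earlier results known. The list had a median log2 fold change of 1.05 in uninduced cells, against 0.03 over all genes, and its summed level was 88.7 to 91.0 TPM in WT samples and 125 to 261 TPM in the clones. At an unadjusted p under 0.05, edgeR found 9 higher and 0 lower, where 20.4% of all genes passed in either direction, with 0 past the threshold and 0 at an adjusted p under 0.05. DESeq2 found 8 higher and 0 lower at an adjusted p under 0.05, against 8.92% of all genes in either direction, and 0 past the threshold, which also asks for an adjusted p under 0.01. Sohlh2, a transcription factor of germ cells, had the largest value, 1.92 (SE 0.67, edgeR adjusted p = 0.196). It stood at 36.8 and 48.4 TPM in clones 8 and 15 but at 4.73 TPM in clone 11, below the 5.69 to 7.54 TPM of the WT samples. Asz1 and Brdt in clone 11 also lay below every uninduced WT library. Sohlh2, Slc25a31 and Hormad1 lie on chromosome 3, whose median log2 ratios were 0.64, -0.04 and 0.83 in clones 8, 11 and 15. The part of the chromosome in their values was not tested. Tdrd1, a piRNA pathway gene, was at -0.79 (SE 0.57, edgeR adjusted p = 0.427) and is named because its sign differs, after its value was seen. DNA methylation itself was not measured in these libraries.

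The other genes of the pathway were described by list, all in uninduced cells with edgeR, where 0 genes of any list passed the threshold. The counts that follow are to be read against the 20.4% of all genes with an unadjusted p under 0.05. Of 9 partners of maintenance methylation, 0 were higher and 1 lower at an unadjusted p under 0.05 (median -0.06), and Dppa3, which keeps Uhrf1 off chromatin, had the largest value at -0.77 (SE 0.37). Of 13 genes that target de novo methylation, 2 were higher and 1 lower (median -0.26), with the largest value for Mphosph8, a HUSH complex subunit, at 0.71 (SE 0.12). Of 10 readers of methylated DNA, 1 was higher and 1 lower (median 0.02), with the largest value for Zbtb4 at 1.06 (SE 0.42), which was under 1 TPM in all libraries.

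On the removal side, 1 of 14 genes of base excision was higher and 2 were lower (median 0.18), with Gadd45g at -1.48 (SE 0.53). Of 10 TET partners and cofactor genes, 2 were higher and 0 lower (median 0.23). These were Nanog at 1.42 (SE 0.45) and Prdm14 at 1.84 (SE 0.70), both transcription regulators of naive pluripotency, of which Nanog is named after its value was seen. Of 12 genes of methyl donor supply, 1 was higher and 3 were lower (median -0.12), with the largest value for Mat2a, which makes S-adenosylmethionine, at -1.13 (SE 0.36). The edgeR adjusted p-values of the genes named for these 6 lists lay between 0.113 and 0.279.

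For the markers of cell identity, edgeR found 0 genes past the threshold in uninduced cells, and the shares over all genes were again 20.4% at an unadjusted p under 0.05 and 2.64% past the threshold in DESeq2. Of 12 pluripotency genes, which share Nanog with the TET partners, 2 were higher and 1 lower at an unadjusted p under 0.05 (median 0.30), and in DESeq2 Tfcp2l1 (1.86) passed the threshold upwards and Lin28a (-1.44) downwards. The 7 trophoblast genes, which share Eomes with the primed list, had a median of 1.35 with 1 higher and 0 lower, and summed to 43.2 to 157 TPM in uninduced WT samples and to 81.4 to 551 TPM in the clones. WT sample 1 was the highest WT library for this sum in both conditions, at 157 and 205 TPM. The largest value was that of Elf5, 2.06 (SE 1.45). Its levels were low, at 1.24, 0 and 0.016 TPM in uninduced WT samples and 3.22, 0.77 and 1.76 TPM in clones 8, 11 and 15. Of 5 primitive endoderm genes tested 1 was higher, Gata4 at 2.22 (SE 0.67), and Sox17, Pdgfra and Foxa2 were under 1 TPM in all libraries. Of 4 fibroblast genes tested 0 were higher or lower (median 1.19), with Col1a1 at 1.82 (SE 0.84), and Col3a1, Dcn and Lum were under 1 TPM in all libraries. The fibroblast sum was 8.79 to 17.8 TPM in uninduced WT samples and 19.8 to 29.5 TPM in the clones, without overlap. The part of these markers in the values of the members was not tested.

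**Figure D5:**
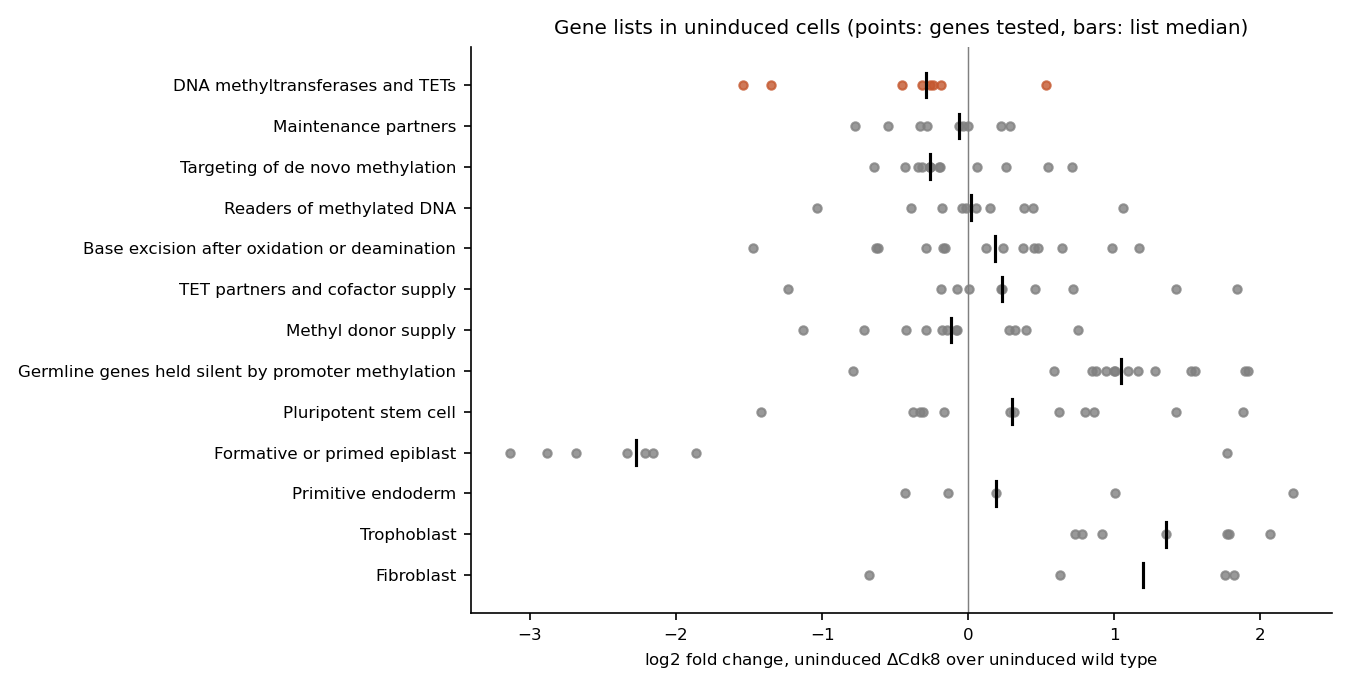
Log2 fold change of uninduced ΔCdk8 over uninduced WT (x axis) for each gene tested in the methyltransferase and TET set (orange) and in the other lists (grey), with the median of each list as a bar. The primed epiblast list lies furthest to the left, with a median of -2.27, and the trophoblast, fibroblast and germline lists lie to the right, with medians of 1.35, 1.19 and 1.05.

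Zbtb33, an X-linked reader of DNA methylation, fell on induction of WT cells. In the paired fit it passed the threshold there with a log2 fold change of -1.69 (SE 0.21, edgeR adjusted p = 0.00537), which without the block was -1.64 (SE 0.27, adjusted p = 0.0228). In the clones the Zbtb33 value was -0.68 (SE 0.13, edgeR adjusted p = 0.00147), short of a fold of 2, and the blocked difference between the genotypes was 1.03 (SE 0.27, edgeR adjusted p = 0.0564). No member of the methyltransferase and TET set lies on the X chromosome. Apobec1, a cytidine deaminase gene of the base excision list, passed the threshold upwards in WT cells in the paired fit at 1.49 (SE 0.17, edgeR adjusted p = 0.00397), and not without the block (1.39, SE 0.61, adjusted p = 0.257). In the clones the paired Apobec1 value was 0.41 (SE 0.11, edgeR adjusted p = 0.0201), and the blocked difference between the genotypes was -1.06 (SE 0.19, edgeR adjusted p = 0.0142).

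For each member the genes with the most similar pattern were listed by Pearson correlation of log2(TPM + 1) over the 12 libraries, among 9597 genes with a mean of at least 5 TPM. These points share libraries and 4 groups, so the correlations are given as a description. The closest to Dnmt3b were Sumo3_1 (0.98), Myb (0.97) and Igf2bp3 (0.97), and the closest to Dnmt3a were Psmc5 (0.96), Dapp1 (0.96) and Crmp1 (0.96). For the maintenance pair they were Ndufs6 (0.95), Rps19 (0.95) and Flcn (0.95) beside Dnmt1 and Rps21 (0.98), Rpl8 (0.98) and Spns1 (0.98) beside Uhrf1. Dnmt3l had the loosest neighbours, Mrps24 (0.83), Glo1 (0.80) and Tmem258 (0.78). The TET genes had Ext1 (0.88), Mdm4 (0.87) and Wdr82 (0.87) beside Tet1, Cep85 (0.96), Mylpf (0.89) and Manba (0.88) beside Tet2, and Tcf25 (0.96), Uck1 (0.91) and Baiap2l1 (0.88) beside Tet3. Among the members themselves the highest correlation was that of Dnmt3a with Dnmt3b, 0.75, and the lowest that of Dnmt3b with Tet2, -0.69.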

How the data were processed

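Per the labels, 12 RNA libraries fell into 4 groups by genotype and induction. The members and gene lists were chosen with earlier results of these data known. The authors enriched polyadenylated RNA, made stranded libraries and aligned untrimmed single-end reads to Ensembl GRCm38 with the CLC Genomics Workbench. The deposited counts are unnormalized reads for each gene, its exons and its introns, and uniquely mapped reads were 92.7% to 94.1% of them. The authors' TPM values divide exon reads by exon length. The deposited RPKM values and fraction columns were not used.

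Total gene reads were tested with edgeR 4.0.16 in R 4.3.3 by quasi-likelihood F tests after TMM scaling and filterByExpr (count minimum 10, total minimum 15), with Benjamini-Hochberg adjustment over all genes. A gene passed with more than a 2-fold difference at an adjusted p under 0.01. SE is the log2 fold change over the square root of F. Alternatives were DESeq2 1.42.0, RLE scaling, no filter, exon or intron reads, 1 fit over 12 libraries, summed libraries, an adjusted p under 0.05 alone, a replicate block and leaving out each library. Induced and uninduced libraries of the same number, as the titles give it, deviated together over 15137 genes (correlations of 0.546 to 0.674 in WT cells and 0.831 to 0.899 in the clones), so the numbers were taken to pair them. Chromosome medians used a TPM minimum of 1 and a pseudocount of 0.1. Named genes were the members, list genes past the threshold or furthest from 0, and the 3 genes most like each member. A result on 1 list gene is not reported here. Upstream windows came from RefSeq (GRCm38.p6). The fits were tested on simulated data. Tables and plots used Python 3.11.15, numpy 2.4.6, pandas 2.3.3 and matplotlib 3.10.9.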

Additional observations from a re-analysis of the deposited data

Results flagged for a closer look

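Dnmt3b differed between the genotypes in its response to induction. The interaction of genotype and induction was 0.61 on the log2 scale in the paired fit (SE 0.10, edgeR adjusted p = 0.00780), with ratios of 0.634, 0.622 and 0.600 in WT samples and of 0.998, 0.843 and 0.956 in clones 8, 11 and 15. Without the block the same difference had an SE of 0.36 and an edgeR adjusted p of 1.00. The clones started at 277 to 310 TPM, under every induced WT library. Groups of 3 libraries were not searched for outlying samples.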

How the results depend on the processing

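Of 63 alternatives to the counts of members past the threshold, 62 gave 0, as reported, and DESeq2 in uninduced cells gave 2 (Dnmt3a and Dnmt3b). Without the block, edgeR passed 0% of all genes in both genotype comparisons, in induction of the clones and in the interaction. A count of 0 members there does not set the members apart from other genes. The replicate block gave 0 as well, and beyond the calls named in the report it changed no other call. No paired analysis was possible for the genotype comparisons, because WT samples and clones share no numbers. Of 464 alternatives to the log2 fold changes, 441 kept direction and call, 2 passed the threshold (DESeq2) and 21 had the opposite sign. With intron reads these were 0.078 (Dnmt1), 0.25 (Uhrf1) and 0.40 (Dnmt3l) for the uninduced genotype difference, 0.041 (Dnmt1), 0.053 (Uhrf1), 0.043 (Dnmt3l) and 0.30 (Tet2) for the induced one, 0.12 (Dnmt3l) and 0.23 (Tet3) for WT induction, -0.030 (Tet1) and 0.059 (Tet3) for induction in the clones, and -0.28 (Dnmt3a) for the interaction. Summed libraries gave 0.16 for Tet2 in the induced genotype difference. Leaving out each library gave ranges that crossed 0 of -0.35 to 0.0070 for Tet2 in the induced genotype difference, -2.9e-05 to 0.13 for Uhrf1 and -0.23 to 0.31 for Dnmt3l on WT induction, -0.0057 to 0.11 for Dnmt1 and -0.16 to 0.0043 for Dnmt3b on induction in the clones, and -0.095 to 0.046 for Uhrf1 and -0.36 to 0.041 for Tet1 in the interaction. The causes were not tested.

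The following combinations were chosen after seeing the data. With the replicate block, 2, 4 and 1 members had an adjusted p under 0.05 in WT cells, the clones and the interaction, and leaving out each library gave 1 to 6, 3 to 3 and 0 to 3. The extremes were 6 without WT replicate 1 and 1 without WT replicate 2 in WT cells, where 6209 and 634 of all genes passed, and 3 without WT replicate 1 and 0 without clone 8 for the interaction, where 2709 and 199 of all genes passed. Of 45 alternatives to the fold changes of these members, 35 kept direction and call, 9 lost the call and 1 had the opposite sign. DESeq2 with the block gave 3 in WT cells, with Tet1 added. Intron reads with the block gave 0 in the clones and 0 for the interaction, with Tet3 at 0.072 in the clones. Intron reads were few for Tet3, at 8 to 48 per library.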
